A study of Mus musculus with 25 samples.

Results

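The mature microRNAs of the cluster that holds miR-322, miR-503, miR-351 and miR-542 were followed across mouse mammary tumours and normal mammary gland. The 5 members, mmu-miR-322-5p, mmu-miR-503-5p, mmu-miR-351-5p, mmu-miR-542-5p and mmu-miR-351-3p, were taken by their names on the array, where they are 5 of 1122 mouse miRNAs. They were selected on earlier results from these arrays, in part on miR-351-3p levels that did not follow those of its neighbours. The correlation of miR-351-3p with the other members and its differences between groups are therefore given as a description, with no test. Tissue came from female FVB mice and was profiled on 25 one-colour Agilent arrays. There were 8 tumours of mice labelled MMTV-Met;Trp53fl/+ (MetTrp53), 7 of MMTV-Met mice (Met), 8 of Trp53fl/+ mice (Trp53) and 2 pools of wild-type mammary tissue (normal). MMTV-Met is a Met receptor transgene under the promoter of mouse mammary tumour virus, and Trp53fl/+ is 1 conditional allele of the tumour suppressor gene Trp53. The series' design text adds Cre to both Trp53fl/+ groups, and the promoter that drives it is not given in the sources used here. One normal pool was of multiparous and the other of nulliparous mice, and animal ages are not given in the sources used here. No label states that each tumour is from its own mouse, and within the Trp53 group 2 pairs carry the same title number. The p-values therefore cover only the variation among these samples, which may be technical in part.

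A miRNA hairpin yields a 5p and a 3p strand, and a strand loaded into Argonaute represses mRNAs that pair with its seed, bases 2 to 8. The mouse miR-322 gene is the counterpart of human miR-424, and miR-322-5p carries the seed of the miR-15 and miR-16 family, which represses cyclins, CDK6 and other genes of the G1 phase. miR-503-5p shares bases 2 to 7 with that family but not the whole seed. In the mammary gland of mice the pair is known to increase when milk is no longer removed, to respond to TGF-β and to take part in involution. miR-351-5p has the seed of miR-125, the mammalian relative of worm lin-4. miR-542-3p is known in human cells to repress survivin (BIRC5).

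The 13 mature products of the locus in RefSeq lie on the minus strand of chromosome X, within 6320 bases of GRCm38.p6, chrX:53048008-53054327. The order along the strand is miR-322, miR-503, miR-351, miR-542 and then the miR-450 genes. The mature products of miR-322, miR-503 and miR-351 lie within the span of the long noncoding RNA gene C430049B03Rik (chrX:53053112-53057190), and those of miR-542 and miR-450 lie downstream of it. Between miR-322-5p and miR-503-5p there are 256 bases, between miR-503-3p and miR-351-5p 648 bases, and between miR-351-3p and miR-542-5p 3801 bases. The mature sequences of the members, from RefSeq, show which seeds they share and are printed with the seed in capitals.
mmu-miR-322-5p (chrX:53054306-53054327): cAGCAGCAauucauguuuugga
mmu-miR-503-5p (chrX:53054027-53054049): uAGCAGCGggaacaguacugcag
mmu-miR-351-5p (chrX:53053315-53053338): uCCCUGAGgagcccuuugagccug
mmu-miR-351-3p (chrX:53053276-53053296): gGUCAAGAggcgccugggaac
mmu-miR-542-5p (chrX:53049453-53049474): cUCGGGGAucaucaugucacga

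The seed of miR-322-5p is shared with 9 other mature mouse miRNAs in that table, and that of miR-351-5p with 4. No other miRNA there has the seed of miR-503-5p or of miR-351-3p. The relatives that come into the results are printed for comparison.
miR-16-5p: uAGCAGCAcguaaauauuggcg
miR-15b-5p: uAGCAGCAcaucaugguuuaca
miR-125a-5p: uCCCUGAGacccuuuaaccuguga
miR-125b-5p: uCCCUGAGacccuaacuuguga

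Between 220 and 334 mouse miRNAs were detected per array by the scanner software's own call, and 330 entered the tests. Levels are log2 intensities scaled to the 75th percentile of probes with clear signal on all arrays, with a floor at 3.6, near 12.1 units of scaled signal. The floor lies above the signal of miR-351-5p, miR-351-3p and miR-542-5p on most arrays, where a log2 level is then a bound. For these members the signal of the brightest probe was used, scaled the same way with no floor, and differences were also fitted on the brightest probe with a floor 4 times lower (3.03 units), a setting chosen after the data were seen. Signals of different miRNAs cannot be set against each other, since each probe has its own yield. The tissue checks against marker miRNAs were mixed: of 7 epithelial markers, 1 was detected on every MetTrp53 array, 4 on every Met array, 0 on every Trp53 array and 7 on both normal arrays. The summed level of 4 skeletal muscle markers was 48.5 to 2120 units in tumours and 10723 to 15197 units in the normal pools, so the pools also held muscle miRNAs.

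**Figure D1:**
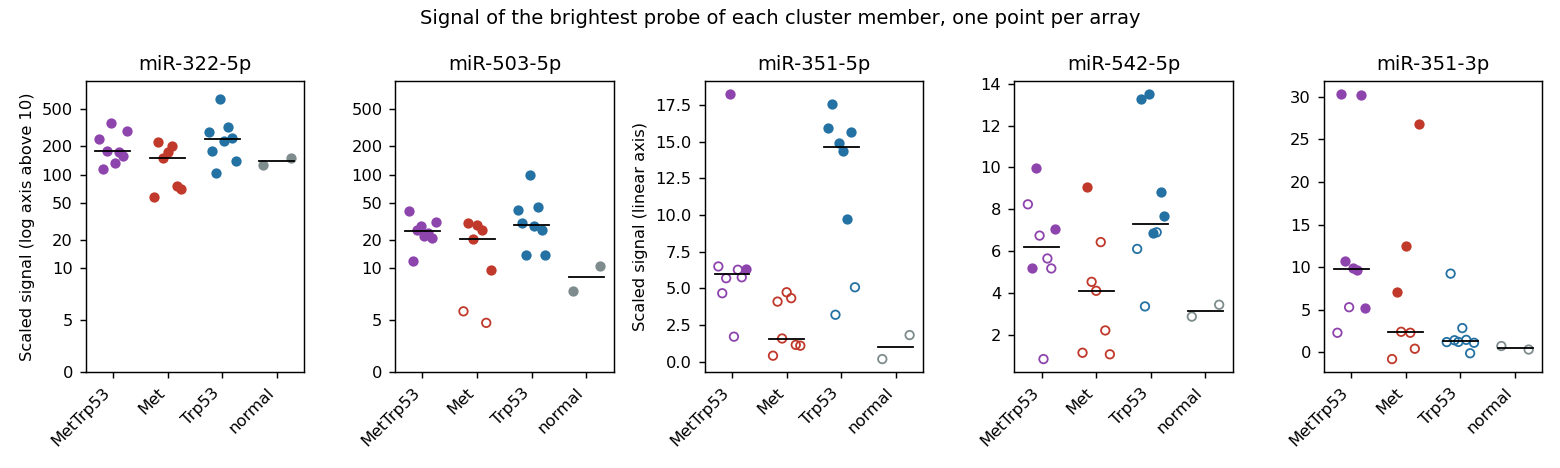
Scaled signal (y axis, array units) of the brightest probe of each member on each array, for MetTrp53 (n = 8), Met (n = 7), Trp53 (n = 8) and normal (n = 2). Filled points are arrays with a detection call, open points are arrays without, and bars are medians. The axes of miR-322-5p and miR-503-5p are linear up to 10 and logarithmic above, and the other axes are linear. The highest miR-322-5p and miR-503-5p signals, 647 and 99.2, are of the same Trp53 tumour.

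miR-322-5p, the first miRNA of the locus, was detected on all 25 arrays. Its log2 level ran from 6.63 over a median of 7.24 to 8.24 in MetTrp53 tumours, from 5.64 over 7.02 to 7.61 in Met tumours and from 6.44 over 7.70 to 9.11 in Trp53 tumours, against 6.75 and 7.00 in the normal pools. The ranges of the groups overlapped, although 5 of 8 Trp53 tumours lay above all Met tumours and 3 of 7 Met tumours below all Trp53 tumours. Met tumours 1, 6 and 7 were the 3 lowest tumours, at 5.64, 6.06 and 5.92. The highest was Trp53 tumour 4, at 9.11. By group mean the order was Trp53 (7.64 ± 0.81), MetTrp53 (7.37 ± 0.56), normal (6.87 ± 0.17) and Met (6.70 ± 0.81; SD, n as above), and no neighbours in that order differed in the tests given further on. Its 2 probes gave the same ranking, with r = 0.999 over the 25 arrays.

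miR-503-5p, encoded next to miR-322, was detected on 23 arrays and missed on Met tumours 1 and 6. Its scaled signal had a lowest value of 12.1, a median of 24.8 and a highest value of 40.9 in MetTrp53 tumours. In Met tumours these were 4.75, 20.3 and 30.7, and in Trp53 tumours 13.8, 29.2 and 99.2. The normal pools gave 7.79 and 10.5. All 8 MetTrp53 and all 8 Trp53 tumours lay above both normal pools, whereas 4 of 7 Met tumours did so and 2 lay below both.

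miR-351-5p, the strand with the miR-125 seed, was detected on 2 of 8 MetTrp53, 0 of 7 Met, 6 of 8 Trp53 and 0 of 2 normal arrays. Scaled signals of its brightest probe were 1.70 at the lowest, 6.01 at the median and 18.2 at the highest in MetTrp53 tumours. They were 0.406, 1.58 and 4.73 in Met tumours, and 3.19, 14.6 and 17.5 in Trp53 tumours. In the normal pools they were 0.175 and 1.81. In 7 of 8 Trp53 tumours the signal was above that of every Met tumour, and 4 of 7 Met tumours lay below every Trp53 tumour. Above every Met tumour were 6 of 8 MetTrp53 tumours, while tumour 5 (1.70) lay within the Met range and tumour 4 (18.2) was the highest of all arrays. Of the 4 probes for miR-351-5p only the brightest was well above background on any array (4 Trp53 arrays), and the correlation of the other 3 with it ranged from 0.34 to 0.63.

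miR-542-5p was detected on 3 of 8 MetTrp53, 1 of 7 Met, 5 of 8 Trp53 and 0 of 2 normal arrays. Its scaled signals had medians of 6.20 in MetTrp53, 4.12 in Met and 7.30 in Trp53 tumours, with ranges of 0.861 to 9.96, 1.09 to 9.07 and 3.37 to 13.5, against 2.89 and 3.45 in the normal pools. The genotypes overlapped widely. Trp53 tumours 2 and 4 were the highest, at 13.2 and 13.5.

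miR-351-3p, the opposite strand of the miR-351 hairpin, had another distribution. It was detected on 6 of 8 MetTrp53, 3 of 7 Met, 0 of 8 Trp53 and 0 of 2 normal arrays. The scaled signal of its brightest probe was 2.28 at the lowest, 9.81 at the median and 30.3 at the highest in MetTrp53 tumours. In Met tumours it was -0.818, 2.39 and 26.9, in Trp53 tumours -0.135, 1.30 and 9.23, and in the normal pools 0.715 and 0.302. MetTrp53 tumours 2 and 7 (30.3 each), Met tumour 7 (26.9) and Met tumour 4 (12.5) were the highest, and they lay on 3 of the 5 slides. In 5 of 8 MetTrp53 tumours the signal was above every Trp53 tumour. Within each of these genotypes the values differed widely, with an SD of 11.1 around a mean of 13.0 in MetTrp53 and of 9.77 around 7.23 in Met, against 2.92 around 2.28 in Trp53. The second miR-351-3p probe followed the first with r = 0.959 over the 25 arrays.

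**Figure D2:**
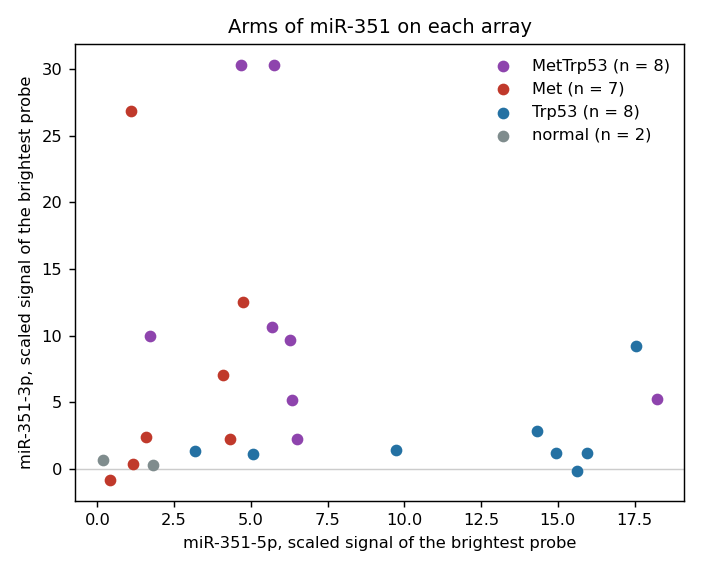
Scaled signal (array units) of miR-351-5p on the x axis and miR-351-3p on the y axis, one point per array, coloured by group. Both strands come from 1 hairpin. The 4 tumours with the highest miR-351-3p signal, 12.5 to 30.3, have miR-351-5p signals of 1.09 to 5.75, and 7 of 8 Trp53 tumours have a miR-351-3p signal below 3.

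Both strands of miR-351 were called detected in 1 tumour only, MetTrp53 tumour 8. Only the 5p strand was detected in 1 MetTrp53 and 6 Trp53 tumours, and only the 3p strand in 5 MetTrp53 and 3 Met tumours. In the 4 tumours with the highest miR-351-3p, the miR-351-5p signal was 1.09 to 5.75, and in the other 19 tumours it was 0.406 to 18.2. Neither strand was detected in the remaining 7 tumours or in the normal pools.

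Of the other 8 products of the locus, miR-450a-5p was detected on 12 arrays, miR-450b-3p on 5, miR-542-3p on 3 and miR-450a-2-3p on 1. The remaining 4, miR-322-3p, miR-503-3p, miR-450a-1-3p and miR-450b-5p, were detected on none. For miR-322 and miR-503 only the 5p strand was therefore detected. miR-450a-5p had a median scaled signal of 9.06 in MetTrp53, 6.70 in Met and 10.3 in Trp53 tumours, against 3.76 and 6.13 in the normal pools, and its highest value, 25.2, was again in Trp53 tumour 4. It was the single product outside the 5 members with enough detection calls to be tested, and it passed in 0 of 9 comparisons.

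**Figure D3:**
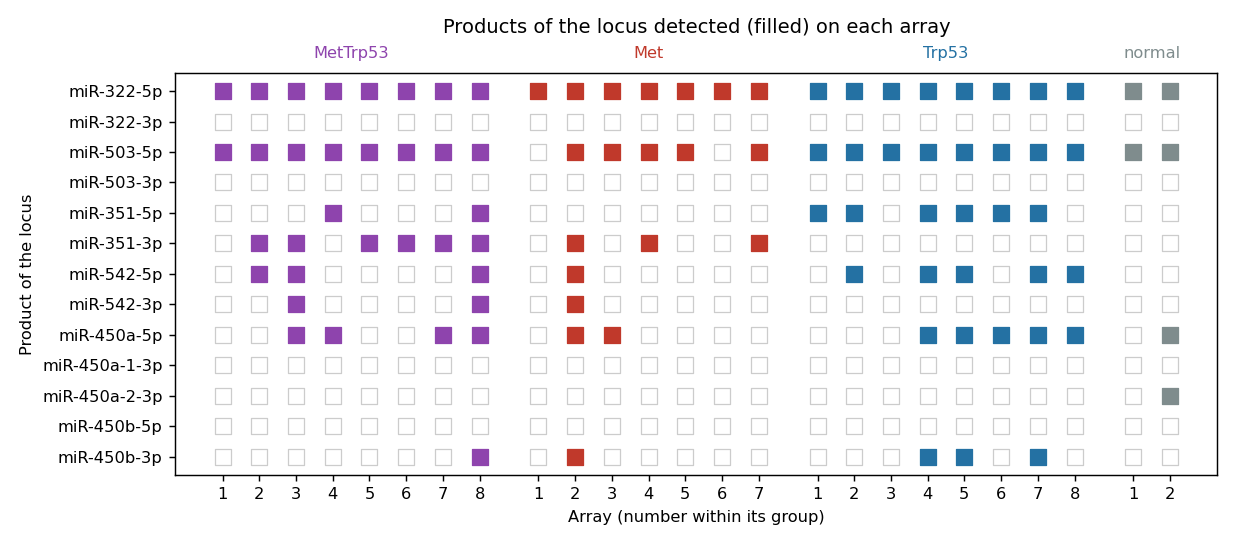
Detection call of the 13 products of the locus (rows) on the 25 arrays (columns, numbered within each group). A filled square is a call, an open square is none. miR-322-5p is filled on all 25 arrays and miR-503-5p on 23, whereas the miR-351-3p row is empty over the 8 Trp53 tumours, where the miR-351-5p row has 6 calls.

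The comparison of Met with Trp53 tumours, which sets the oncogene model against the tumour suppressor model, gave lower values in Met for all 4 members tested. These groups also differ in stated parity (6 multiparous and 0 nulliparous in Met, 2 and 3 in Trp53). They differ in pathology too (1 spindloid and 0 intermediate in Met, 3 and 2 in Trp53). Genotype, parity and pathology cannot be fully told apart here. Over all miRNAs the 33 calls fell to 10 with parity and 7 with pathology as covariates. These 2 fits also left out the normal pools and kept only the 19 tumours with stated parity or the 22 with stated pathology. The part of the lost arrays in the fall was not tested. The limma test, with Benjamini-Hochberg adjustment over the 330 miRNAs, passed 0 of the 4 members at the main scaling, where 10% of all miRNAs passed, and 1 of 4 had an unadjusted p under 0.05. The difference was -0.94 on the log2 scale for miR-322-5p (SE 0.36, adjusted p = 0.0949) and -0.41 for miR-503-5p (SE 0.21, adjusted p = 0.232). The median difference was -0.24 over the 4 members and 0.01 over all tested. Without Trp53 tumour 4, the highest in both miRNAs, the miR-503-5p difference was -0.23 (adjusted p = 0.410) and the members' median -0.14. The miR-322-5p difference passed when either of 2 tumours was left out. Its adjusted p was 0.0417 without Met tumour 2 and 0.0393 without Trp53 tumour 3, and the share of all miRNAs passing there was not recorded. Without Trp53 tumour 4 it was -0.73 (adjusted p = 0.190), and 0 of 4 members passed, where 23 of 330 miRNAs did. With slide as a block the miR-322-5p difference was -0.97 (adjusted p = 0.115). Within the 5 slides, which held 1 or 2 tumours of each genotype, the miR-322-5p difference was between -1.96 and -0.41, and that of miR-503-5p between -0.78 and 0.02.

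With the brightest probe and the lower floor, 1 of the 4 members passed, where 16.1% of all miRNAs did, and the unadjusted p was under 0.05 for 4 of 4. That member was miR-351-5p, with mean log2 levels of 1.83 ± 0.29 in Met and 3.39 ± 0.91 in Trp53 tumours (SD, n = 7 and 8; limma adjusted p = 0.00476). The median Met signal lay under this lower floor, so most Met values were set to the floor, which narrows their SD. The difference on this floored scale was -1.56 (SE 0.35), and it was not fitted there with parity or pathology as covariates. It stayed past the threshold when each of the 15 tumours was left out in turn, with adjusted p between 0.000461 and 0.0154, and within the 5 slides it was between -2.46 and -0.74. miR-351-5p met the detection filter only with its calls in Trp53 tumours (6 calls, against 0 in Met), so this result leans towards that group. Leaving tumours out does not remove this, since the miRNAs tested stayed the same. miR-351-5p is also 1 of the neighbours that miR-351-3p did not follow when the members were selected. Its p-values and ranges here are therefore a description only. The brightest probe of miR-351-5p was well above background on 4 of 8 Trp53 arrays and on 0 of 7 Met arrays, and no fold is given, since its bound came out under 1. At the main scaling the same difference was -0.06 (adjusted p = 0.308), with all 7 Met values and 3 of 8 Trp53 values at the floor. The differences of the other members on the lower floor were -0.95 for miR-322-5p (adjusted p = 0.0761), -1.09 for miR-503-5p (adjusted p = 0.0897) and -0.81 for miR-542-5p (adjusted p = 0.0679). miR-542-5p, too, met the detection filter only with its calls in Trp53 tumours, so its difference leans towards that group. On this floor 4 of 4 members passed without Met tumour 2 and 4 of 4 without Trp53 tumour 3, and 1 of 4 without each of the other 13 tumours. The share of all miRNAs that passed in each of these fits was not recorded. These counts are therefore not read as a result about the members.

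**Figure D4:**
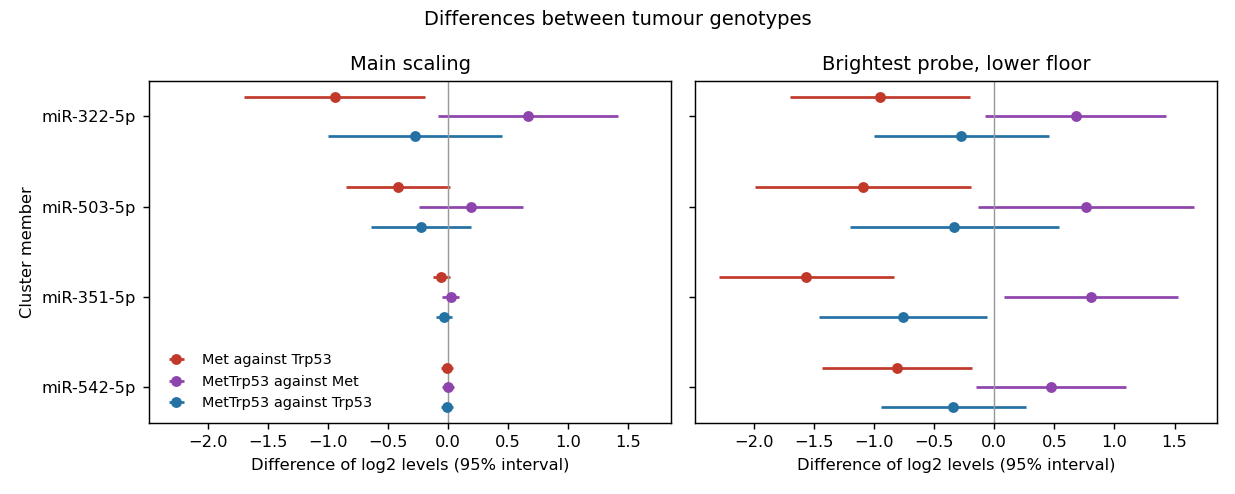
Differences of log2 levels (x axis) between tumour genotypes for the 4 members tested, with 95% intervals from limma, at the main scaling (left) and with the brightest probe and lower floor (right). Points left of 0 are lower in the genotype named first. The interval of miR-351-5p for Met against Trp53 is narrow and near 0 on the left, where the floor covers its values, and runs from -2.29 to -0.84 on the right.

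MetTrp53 tumours, which carry both lesions, lay between the single models in the mean level of miR-322-5p and in the median signals of miR-503-5p, miR-351-5p and miR-542-5p. Against Met tumours 0 of 4 members passed, where 0% of all miRNAs did (0 of 330, with 61 at an unadjusted p under 0.05 and 0 of the 4 members among them). The miR-322-5p difference was 0.67 (95% interval -0.08 to 1.42, adjusted p = 0.342). Against Trp53 tumours 0 of 4 passed as well, again with 0% of all miRNAs (0 of 330, and 23 unadjusted), and the miR-322-5p difference was -0.28 (95% interval -1.001 to 0.45, adjusted p = 0.929). On the lower floor miR-351-5p differed by 0.80 from Met (adjusted p = 0.150, where 4.24% of all miRNAs passed) and by -0.76 from Trp53 (adjusted p = 0.502, where 0% passed). These intervals leave room for differences of over 1 log2 unit in miR-322-5p, so the absence of a call does not show that the levels were alike. miR-351-3p, which was not tested, averaged 13.0 ± 11.1 units in MetTrp53 tumours, 7.23 ± 9.77 in Met tumours and 2.28 ± 2.92 in Trp53 tumours (SD, n = 8, 7 and 8).

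Tumours were compared with the normal pools to ask which miRNAs differ from the gland of origin. In these bulk samples fewer cells of a type and less RNA per cell cannot be told apart. Taking the 3 genotypes together, 0 of 4 members passed, where 12.7% of all miRNAs did, and the median difference was 0.19 over the members and 0.14 over all tested. The miR-503-5p difference was 0.52 (SE 0.30, adjusted p = 0.294). Both normal pools were at the main floor for 3 of the 4 members, all but miR-322-5p. On the lower floor 0 of 4 passed, where 17.3% of all miRNAs did, with 1 of 4 at an unadjusted p under 0.05. There the median difference was 0.94 over the members and 0.35 over all tested, and that of miR-503-5p was 1.29 (SE 0.62, adjusted p = 0.169). In Met 0 of 4 passed, where 12.4% of all miRNAs did, and in MetTrp53 0 of 4, where 14.8% did. In Trp53 0 of 4 passed, where 13.3% did, and 1 of 4 had an unadjusted p under 0.05. This was miR-503-5p, with levels of 4.33 ± 0.60 in Trp53 tumours (SD, n = 8) and both normal pools at the floor of 3.6 (difference 0.73, adjusted p = 0.144). miR-503-5p passed (limma adjusted p = 0.0249) once the tumours that share a title number had been averaged, where 45 of 330 miRNAs passed. The miR-322-5p difference was 0.77 (SE 0.55, adjusted p = 0.458) in Trp53 and -0.17 (SE 0.56, adjusted p = 0.906) in Met tumours, each against the same 2 pools.

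On the lower floor miR-351-5p passed in Trp53 tumours against normal (adjusted p = 0.0253, where 16.4% of all miRNAs passed). It had met the detection filter only with its calls in Trp53 tumours, so this call leans towards them. The mean log2 level was 3.39 in Trp53 tumours, and both normal pools were at the lower floor of 1.60. Its brightest probe was well above background on 4 of 8 Trp53 arrays and on neither normal array, so no fold is given. The call was lost without normal pool 1 (adjusted p = 0.242) or normal pool 2 (adjusted p = 0.161), so it needs both pools. The other differences of Trp53 from normal on this floor were 0.75 for miR-322-5p (adjusted p = 0.389), 1.76 for miR-503-5p (adjusted p = 0.0713) and 1.24 for miR-542-5p (adjusted p = 0.0690). Without Trp53 tumour 3 the last 2 passed, with adjusted p of 0.0421 and 0.0252, and without Trp53 tumour 8 miR-503-5p did (adjusted p = 0.0461). The share of all miRNAs that passed in these fits was not recorded. miR-542-5p met the detection filter only with its calls in Trp53 tumours, so its p-values lean towards that group. Of miR-351-3p no detection call was made in the normal pools, with signals of 0.715 and 0.302.

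Pathology was stated for 22 tumours, of which 7 were labelled spindloid and 15 had another stated type. The median log2 level of miR-322-5p was 7.61 in spindloid tumours (range 6.63 to 8.24) and 7.23 in the others (range 5.64 to 9.11). With genotype as a covariate the difference was 0.17 (95% interval -0.56 to 0.90, adjusted p = 0.919). miR-503-5p differed by -0.16 (adjusted p = 0.810). Among spindloid tumours miR-351-5p was detected in 3 of 7 and miR-351-3p in 3 of 7, against 4 of 15 and 5 of 15 of the others. By limma 0 of 4 members passed, as did 0% of all miRNAs (0 of 330, with 41 at an unadjusted p under 0.05, 0 members among them). The 15 other tumours include the 3 intermediate ones. With these left out 16 of the 330 passed (4 higher, 12 lower), and with normexp background correction 6 did, in both cases with 0 of 4 members. The 3 intermediate tumours had miR-322-5p levels of 7.22 to 8.08, within the range of the spindloid tumours. The effect of spindloid pathology did not differ detectably between MetTrp53 and Trp53 tumours for any of the 4 members (limma adjusted p = 1 each).

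Parity was compared because the miR-322 and miR-503 pair is known for the involuting gland. It was stated for 19 tumours, of which 10 were from multiparous and 9 from nulliparous mice, and no Met tumour was stated to be from a nulliparous mouse. In MetTrp53 tumours miR-322-5p averaged 7.48 ± 0.30 in multiparous mice (SD, n = 2) and 7.33 ± 0.65 in nulliparous mice (SD, n = 6). In Trp53 tumours it averaged 7.91 ± 0.23 in multiparous mice (n = 2) and 7.35 ± 0.80 in nulliparous mice (n = 3). The difference with genotype as a covariate was 0.33 (95% interval -0.53 to 1.20, adjusted p = 0.931) for miR-322-5p and 0.25 (95% interval -0.11 to 0.61, adjusted p = 0.931) for miR-503-5p. By limma 0 of 4 members passed, and 0% of all miRNAs did (0 of 330, with 10 at an unadjusted p under 0.05). Of the normal pools, the multiparous one had a miR-322-5p level of 6.75 and the nulliparous one of 7.00, with no replicate of either.

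On the lower floor, across the 23 tumours, the 5p strands had positive correlations with each other. There miR-322-5p and miR-503-5p had r = 0.933 (Spearman's rho of the unfloored signals 0.911), and r was 0.912 after each genotype's mean was subtracted. Without the 2 tumours farthest from the median of miR-322-5p it was 0.885. miR-322-5p had r = 0.75 with miR-351-5p, 0.760 with miR-542-5p and 0.865 with miR-450a-5p, and miR-351-5p and miR-542-5p had r = 0.716. At the main scaling, with its higher floor, the same 4 values were 0.488, 0.391, 0.571 and 0.454, and miR-322-5p and miR-503-5p had r = 0.893. Both miRNAs of a pair were detected in 21 tumours for miR-322-5p with miR-503-5p, but in only 8, 9, 11 and 5 tumours for the other 4 pairs. miR-351-3p had r = -0.288 with miR-322-5p, -0.160 with miR-503-5p, -0.215 with miR-351-5p and -0.175 with miR-542-5p. All these values come from the same arrays, which share their scaling factor, and are a description.

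**Figure D5:**
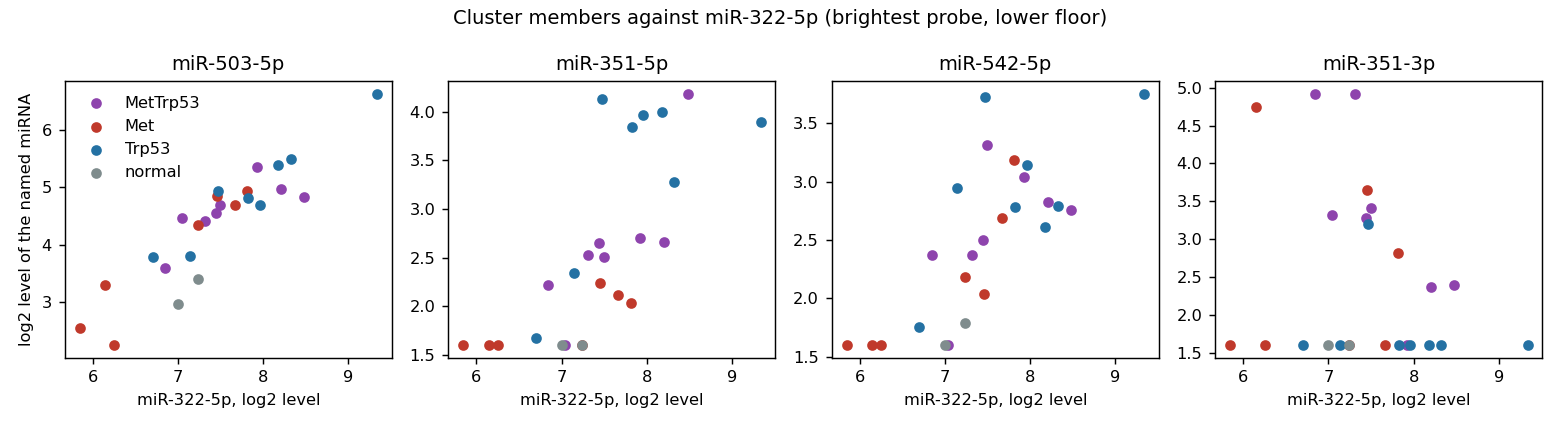
Log2 level of miR-503-5p, miR-351-5p, miR-542-5p and miR-351-3p (y axes) against that of miR-322-5p (x axes), one point per array, on the brightest probe with the lower floor. Points along the lower edge of a panel are at the floor of 1.60. miR-503-5p follows miR-322-5p closely (r = 0.933 over 23 tumours), and miR-351-3p does not (r = -0.288).

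The miRNAs outside the locus whose log2 levels over the 23 tumours were most like those of miR-322-5p, among 266 candidates, were miR-34c-5p (r = 0.74), miR-21-5p (r = 0.72) and miR-16-5p (r = 0.72), and the least alike was miR-200a-3p (r = -0.67). For miR-503-5p they were miR-34c-5p (r = 0.65), miR-3070b-3p (r = 0.61) and miR-324-3p (r = 0.61). For miR-351-5p they were miR-324-3p (r = 0.72), miR-185-5p (r = 0.66) and miR-300-3p (r = 0.64), and for miR-542-5p miR-3070b-3p (r = 0.76), miR-3099-3p (r = 0.72) and miR-697 (r = 0.66). On the lower floor miR-16-5p was among the 3 most alike for 4 of the members, with r of 0.739 for miR-322-5p, 0.671 for miR-503-5p, 0.736 for miR-351-5p and 0.729 for miR-542-5p.

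The miRNAs most alike to miR-351-3p were others. They were miR-877-5p (r = 0.79), miR-135a-1-3p (r = 0.78) and miR-721 (r = 0.75) at the main scaling. On the lower floor they were miR-877-5p (r = 0.948), miR-2861 (r = 0.919) and miR-3081-5p (r = 0.903), and the least alike was let-7a-5p (r = -0.791). These 3 are encoded on chromosomes 17, 2 and 16, away from the X-linked locus. Their sequences share no seed with miR-351-3p.
miR-877-5p: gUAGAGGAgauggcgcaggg
miR-2861: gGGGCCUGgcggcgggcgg
miR-3081-5p: gACUGGAGcuuggagcggugagc

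G and C make up 66.7% of the bases of miR-351-3p, 65.0% of miR-877-5p, 94.7% of miR-2861 and 65.2% of miR-3081-5p, against 62.5% of miR-351-5p and 40.9% of miR-322-5p. Among those most alike to miR-351-3p at the main scaling, miR-135a-1-3p had 59.1% and miR-721 had 42.9%. miR-324-3p, the most alike to miR-351-5p, had 70%. The next most alike to miR-351-5p on the lower floor, miR-16-5p and miR-149-5p, had 45.5% and 60.9%. The 4 tumours with the highest miR-351-3p were also the 4 highest for miR-877-5p (44.1 to 93.4 units, against 7.23 to 36.1 in the other 19), for miR-2861 (632 to 1054 units, against 141.9 to 590) and for miR-3081-5p (53.5 to 120 units, against 8.91 to 38.5). This overlap follows largely from picking these miRNAs by their r with miR-351-3p over the same tumours, and is a description. None of these 4 tumours was among the 4 highest for miR-322-5p, miR-503-5p, miR-351-5p or miR-542-5p. Over the 23 tumours the miR-351-3p level had r = 0.465 with the percentage of spots well above background on the array, whereas r was -0.073 for miR-322-5p and -0.301 for miR-351-5p. The part of base composition and of array brightness in the miR-351-3p values was not tested.

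The relatives that share the seeds were set beside the members. Of the miR-15 and miR-16 relatives on the array 5 were tested. In Met against Trp53 tumours 1 of the 5 was lower, miR-16-5p, at -0.58 (SE 0.14, limma adjusted p = 0.00919), and 0 were higher. Against the normal pools miR-15b-5p was higher in each genotype, by 1.45 in MetTrp53, 1.19 in Met and 1.60 in Trp53 tumours (adjusted p between 3.42e-05 and 0.00147). In Trp53 tumours miR-16-5p was higher too, by 0.71 (adjusted p = 0.0283). Both miR-125 relatives of miR-351-5p were lower in Met than in Trp53 tumours, groups that also differ in parity and pathology. The miR-125a-5p level was 7.43 ± 0.37 in Met and 8.57 ± 0.33 in Trp53 (SD, n = 7 and 8; difference -1.14, adjusted p = 0.000948), and that of miR-125b-5p 8.27 ± 1.08 and 9.79 ± 1.05 (difference -1.52, adjusted p = 0.0461). Against the normal pools miR-125a-5p was higher by 1.49 in MetTrp53, 0.93 in Met and 2.07 in Trp53 tumours (adjusted p between 9.39e-06 and 0.0320), and miR-125b-5p passed in none of the 3. miR-351-5p had r = 0.627 with miR-125a-5p and 0.449 with miR-125b-5p over the 23 tumours, and 0.159 and 0.119 once genotype means were subtracted. The 3 miRNAs share their first 8 bases, and the part that similar sequence has in the miR-351-5p signal was not tested.

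miR-322-5p varied together with marker miRNAs of other cell types. Over the 23 tumours its level correlated with the mean level of 2 endothelial markers (Pearson's r = 0.710, Spearman's rho = 0.685, adjusted permutation p = 0.0008 and 0.00144), of 4 mesenchymal markers (r = 0.627, rho = 0.578, adjusted permutation p = 0.00552 and 0.0125) and of 5 leukocyte markers (r = 0.566, rho = 0.749, adjusted permutation p = 0.0139 and 0.0004). The tests were two-sided, and p-values were adjusted over 8 relations. Without the 2 tumours farthest from the median of each list, r was 0.721, 0.552 and 0.614. After genotype means were subtracted it was 0.636, 0.495 and 0.556, and after slide means 0.719, 0.627 and 0.642. Within slide 4, the one slide with 6 tumours, it was 0.786, 0.907 and 0.601. The summed level of the 2 endothelial markers was 350 to 1271 units in MetTrp53, 190 to 1161 in Met and 492 to 1411 in Trp53 tumours, against 1719 and 2118 in the normal pools. No marker of these 3 lists was undetected throughout any group. For the epithelial list the tumours fell into 14 with low and 9 with high levels, and within them r was -0.192 and -0.367 (adjusted permutation p = 0.567 each). No r over all 23 tumours was computed for this list, so these values leave out the contrast between low and high tumours. Over all 23 tumours miR-200a-3p, of this list, was the least alike to miR-322-5p among 266 candidates (r = -0.67). For the smooth muscle and myoepithelial list r was 0.094 and for the erythroid list -0.178, and among the 19 tumours with low skeletal muscle markers it was 0.179, none of which passed. The part of other cells in the miR-322-5p level was not tested.

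The Trp53 tumours that share a title number differed in the levels of the members. Tumours 4 and 8 had miR-322-5p levels of 9.11 and 6.94 and miR-503-5p signals of 99.2 and 14.0. Tumours 2 and 3 had miR-322-5p levels of 7.23 and 6.44 and miR-351-5p signals of 17.5 and 3.19. In each pair all of miR-322-5p, miR-503-5p, miR-351-5p and miR-542-5p were higher in the same tumour. The miR-351-3p signal was higher in that tumour too, at 9.23 against 1.39 in tumours 2 and 3. In tumours 4 and 8 it was 1.20 against 1.10, and all of these miR-351-3p signals were below the main floor.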

How the data were processed

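Total RNA of 23 tumours and 2 normal pools was measured on one-colour (Cy3) Agilent miRNA arrays, per the labels. The deposited scanner files hold spot intensity values made with Agilent Feature Extraction 10.7.3.1, background-subtracted but not normalised between arrays, per the file headers. The authors' deposited table holds log2 values per spot, for which the submitters' processing notes name RMA; its centring is not known (column medians 1.72 to 1.91), and it was used as an alternative only.

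Spots flagged as outliers were left out and spots of a probe averaged. Each array was scaled by its 75th percentile, taken over 221 probes well above background on all 25 arrays, and brought to the median percentile (572). This percentile ranged from 279 to 909. A floor of 0.0212 of the percentile was set, log2 taken, and probes of a miRNA averaged. Testing needed a detection call on 7 or more tumour arrays, or on the 2 normal ones. The 330 miRNAs left were fitted in limma 3.58.1 (R 4.3.3) with Benjamini-Hochberg adjustment at 0.05. A miRNA kept through 1 group leans towards that group. All 5 members passed this filter, miR-351-5p mainly through its 6 calls in Trp53 tumours. The fit across the 4 groups shared 1 estimate of the spread, and pathology and parity were fitted with genotype as a covariate. Correlation p-values came from 100000 permutations. The steps were tested on simulated data. The number of arrays limits the precision, and no spot of a mouse miRNA was saturated.

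The members, lists and comparisons were chosen with earlier results of these data known. Genes named beyond the members are the other products of the locus, the relatives by seed, and for each member the 3 miRNAs with the highest r. Groups came from the labels, and replicates were numbered in accession order. Slides (5) and scan dates (3) each held several groups. Sequences are RefSeq's, GRCm38.p6; 881 of 1122 array names matched. The scanner files have no mean signal, so the median signal was used for normexp background correction.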

Additional observations from a re-analysis of the deposited data

Results flagged for a closer look

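In 21 combinations of a member, a measure and a tumour genotype, 5 had 1 tumour whose gap to the next exceeded Dixon's 95% critical value. Chance gives about 1 in 20 for independent, normally distributed values. The combinations are not independent, since members correlate and miR-503-5p enters as signal and as log2 level. Most flags are on unlogged signals, so the count is not read as an excess. Trp53 tumour 4 accounted for 3 of the 5 flags: a miR-322-5p signal of 647 (next 321), a miR-503-5p signal of 99.2 (next 45) and a miR-503-5p log2 level of 5.59 (next 4.55). The miR-351-5p signal of MetTrp53 tumour 4 was 18.2 (next 6.49). The miR-351-3p signal of Trp53 tumour 2 was 9.23 (next 2.82), without a detection call.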

How the results depend on the processing

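Of the 4 tested members, 0 passed in 9 comparisons at the main scaling, and the count of members moved in 2 comparisons. For Trp53 against normal it was 1 with tumours of 1 title number averaged (miR-503-5p), where 45 of 330 miRNAs passed. With the brightest probe and lower floor it was 1 as well (miR-351-5p), where 54 did. For Met against Trp53 it was 1 with the authors' table (miR-322-5p, -1.104, limma adjusted p = 0.0401), where 48 of 330 miRNAs passed. With the brightest probe and lower floor it was also 1, where 53 did. The cause of these moves was not tested. With no detection filter the count stayed at 0; 701 miRNAs at the floor on every array were left out of that fit, a choice made after the data were seen, since a miRNA with no variation cannot be tested. Leaving out Met tumour 2 or Trp53 tumour 3 brought miR-322-5p past the threshold, while leaving out Trp53 tumour 4 or either normal pool changed no count at the main scaling. Signs turned only in differences or correlations that had not passed. With the percentile over all mouse probes, miR-322-5p was at -0.0046 in tumours and -0.022 in MetTrp53 against normal, and the median of all miRNAs in tumours against normal moved by over 0.1, to 0.02, with 5 higher and 35 lower calls against 16 and 26. With normexp that median was 0.37, and miR-322-5p was at 0.043 in Met against normal. For spindloid pathology miR-351-5p was at -0.21 with normexp, and miR-542-5p at 0.057 with the authors' table and 0.17 with the lower floor. For parity miR-351-5p was at 0.21 with normexp, 0.0077 with all probes and 0.18 with the lower floor. Correlations of miR-322-5p turned for the upper epithelial tumours (0.037) and the erythroid list (0.026) with all probes, the smooth muscle list (-0.070) with the authors' table and the lower epithelial tumours (0.195) with normexp. Over all miRNAs normexp called 28 in tumours against normal (42 at the main scaling) and 21 in Met against Trp53 (33). Without normal pool 1 the first count was 17. With parity or pathology as covariates the second was 10 or 7, in fits that also left out the normal pools and tumours without that label. Averaging by title number was not run for pathology, where a pair differs in type, or parity, where no pair has both stated. No paired analysis was run, since the labels give no pairing between the groups. Signal over background limits miR-351-5p, miR-351-3p and miR-542-5p, and 2 normal pools limit every comparison with normal.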
